A study of Mus musculus with 2 samples.

Results

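Cycling progenitors are the dividing cells of a primary culture of mouse lateral ventricular wall, and the authors' cell table gives each of them a cell cycle class. The comparison made here is between the cells that carry the class G2/M and those that carry the class S. Its members are the 197 cycling progenitors of either class, 172 in S and 25 in G2/M, among 759 cycling progenitors and 16401 cells in all. Replicate 1 held 124 S cells and 17 G2/M cells of its 520 cycling progenitors, and replicate 2 held 48 and 8 of its 239. The remaining cycling progenitors were classed as G0 (100 cells), G1 (159) or S/G2 (303), and S/G2 is by its name the class between S and G2/M.

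Both libraries came from untreated cells of newborn (P0-P2) mice, grown from dissected ventricular walls and sequenced after 2 days in serum-free medium, when ependymal differentiation has begun. Replicate 1 was C57BL/6N and replicate 2 was C57BL/6J, so substrain, culture and library cannot be told apart. Each is 1 library of 1 culture, the number of animals in a culture was not given in the sources used here, and every class is present in both. The way the authors assigned the classes was not given there either. If they were set from the expression of cell cycle genes in these same cells, a test of such a gene between classes is not independent of the class, and the values below describe what the labelled cells hold.

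In a dividing cell, origins of replication are licensed in G1 by the Cdc6, Cdt1 and Mcm proteins, and DNA is copied in S phase by forks that carry the sliding clamp PCNA. Genes for this work are switched on by E2F factors around the G1/S boundary. Genes for mitosis are switched on later, by the B-Myb, MuvB and Foxm1 factors acting at CHR and CCAAT elements, and many of their proteins are destroyed as the cell leaves mitosis by the anaphase-promoting complex with its activators Cdc20 and Fzr1. In the ventricular wall, dividing progenitors exist beside post-mitotic progenitors that build many centrioles and motile cilia and become ependymal cells.

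The sequences that these factors are known to read lie near the transcription start of several genes whose levels are described below, and examples are shown. They were picked after the levels had been seen and because they hold a match. Each is the 30 bases around the match nearest the start, read 5′ to 3′ on the gene's strand from the RefSeq promoter table (GRCm38.p6), with the match in capitals. For 4 early genes the match is an E2F-type motif, TTTNNCGC on either strand. It lies at chr11:98908002-98908031 for Cdc6, 138 bases before the start, at chr8:75109349-75109378 for Mcm5, 149 before, and at chr10:128705173-128705202 for Cdk2, 140 before. In Cdt1 it lies after the start, from base 33 of the transcribed part, at chr8:122568035-122568064.
Cdc6: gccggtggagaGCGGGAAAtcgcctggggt
Mcm5: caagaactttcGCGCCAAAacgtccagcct
Cdk2: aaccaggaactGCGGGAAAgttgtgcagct
Cdt1: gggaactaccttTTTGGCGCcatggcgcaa
For 7 mitotic genes the match is a CHR element, TTTGAA or TTCGAA on either strand. The windows are chr7:122159453-122159482 (Plk1), chr2:172370521-172370550 (Aurka), chr4:118437344-118437373 (Cdc20), chr2:164769888-164769917 (Ube2c), chr5:30666890-30666919 (Cenpa), chr9:70421533-70421562 (Ccnb2) and chr1:189688067-189688096 (Cenpf). The first base of the match lies before the start in Cdc20 (18 bases) and Ube2c (29), and after it in the other 5.
Plk1: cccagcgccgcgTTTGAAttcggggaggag
Aurka: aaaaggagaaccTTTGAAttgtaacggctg
Cdc20: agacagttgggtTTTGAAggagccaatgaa
Ube2c: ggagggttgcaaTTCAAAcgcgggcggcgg
Cenpa: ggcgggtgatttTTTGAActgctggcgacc
Ccnb2: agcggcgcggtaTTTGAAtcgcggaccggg
Cenpf: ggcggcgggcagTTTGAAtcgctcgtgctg
The element stood on the opposite strand in Cdc6, Mcm5, Cdk2 and Ube2c. In windows of 300 bases, from 250 before to 50 after the most upstream RefSeq start, a CHR match stood in 47.0% of 151 promoters of mitosis genes, in 15.4% of 123 promoters of replication genes and in 19.5% of all 27025 promoters and 13.6% of those of the genes tested. An E2F-type match stood in 15.9%, 27.6% and 5.29%, and CCAAT on either strand in 60.3%, 55.3% and 38.0%, beside 9.72% and 40.0% of the genes tested. CHR and E2F-type matches may overlap and were counted separately. A match is a run of letters and not a measured binding site.

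The label G2/M was checked first against genes of dividing cells. Summed over 10 markers of dividing cells, the cells labelled G2/M held 1385 and 1837 CPM in replicates 1 and 2 (a UMI is 1 counted transcript molecule, and CPM are the UMIs of a gene for 1000000 UMIs of its class and library), below S with 4349 and 4469 and below S/G2 with 7968 and 8968. These 10 include 3 genes that peaked in G1 or S (Mcm5, Pcna and Rrm2). Against S 8 of the 10 were lower and 2, Tpx2 and Cenpf, were higher, against S/G2 9 were lower, and against G0 4 were higher and 1 lower. Of all genes tested 6.68% were lower and 4.28% higher than S, 5.75% lower than S/G2, and 1.26% higher and 0.779% lower than G0. Plk1, the kinase that drives entry into and passage through mitosis, had 0 and 8.20 CPM in the cells labelled G2/M, against 40.7 and 65.7 in S and 270 and 298 in S/G2. Only 1 Plk1 UMI was counted in the 25 cells. The level in S was 18.3 times that in G2/M, with a 95% counting interval from 3.23 to 726, and the level in S/G2 was 104 times that in G2/M, with an interval from 18.7 to 4125. The Plk1 call against S was lost with cells thinned (edgeR adjusted p = 0.091). That of Birc5 was lost with 8 cells per sum (−0.73, edgeR adjusted p = 0.183). Birc5 still had a UMI in 58.8% and 87.5% of the unthinned cells labelled G2/M, against 96.8% and 97.9% of S. By levels below S of Plk1, Mki67, Top2a, Cdk1, Ccna2 and, less firmly, Birc5 the 25 cells go against their label. Their low Mcm5, Pcna and Rrm2 do not go against it, and Tpx2, Cenpf and some late genes described below were above S in them. The 25 cells are called the cells labelled G2/M throughout.

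The cells labelled G2/M were also the shallowest of the classes compared. Their median was 14079 and 11732.5 UMIs per cell, against 16133.5 and 22318.5 in S and 20018.5 and 23092 in S/G2. Median genes per cell were 4076 and 3923.5, against 4708 and 5464 in S. The median mitochondrial share was 3.25% and 5.84%, against 3.78% and 5.97% in S, so the libraries differed more than the classes. Summed over cells, the class held 251197 and 121933 UMIs, and S held 2188069 and 1081113. At that depth 3 UMIs over both libraries correspond to 8.04 CPM, which is the level that a count of 0 in the cells labelled G2/M allows. No barcode of these 197 cells was shared between the libraries, while 13 were shared among all cells.

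Of 10017 genes tested, 429 (4.28%) were higher and 669 (6.68%) lower in the cells labelled G2/M than in S (edgeR quasi-likelihood test on class sums, library as block, Benjamini-Hochberg adjusted p at most 0.05). Without the block the test called 144 higher and 419 lower. From S to S/G2, 621 (6.2%) were higher and 509 (5.08%) lower, and from S/G2 to the cells labelled G2/M 277 (2.77%) were higher and 576 (5.75%) lower. Both ways together these are 11.0%, 11.3% and 8.52% of the genes. Scaled by the number of cells in place of total UMIs, 115 were higher and 1543 lower in the cells labelled G2/M than in S, and 39 were higher and 1929 lower than in S/G2. The spread behind these tests is that between 2 libraries over 5 classes, with 4 residual degrees of freedom. A total of 237 tested genes had no UMI in the cells labelled G2/M, and 104 of these were called lower than in S.

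Replication genes were low in the cells labelled G2/M. Of 161 tested genes on 8 lists for DNA replication and its repair, 109 were lower than in S (67.7%, beside the 6.68% of all genes) and 4 were higher. Their median log2 difference was −2.43, or −2.13 with genes of no UMI set at the floor of 3, beside −0.05 over all genes. From S to S/G2 84 of the 161 were lower (beside 5.08% of all genes) and 14 higher, with a median of −0.56. That count depended on the settings: 46 were lower and 2 higher with no replicate block, and 3 were lower and 4 higher of 84 tested with 8 cells per sum. Of the 161 genes, 70 had their highest level in S in both libraries, 15 in G1, 18 in S/G2 and 2 in the cells labelled G2/M, where of all 10017 genes 687, 377, 716 and 1205 did.

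Licensing and firing genes had their highest level in G1 or in S: of 25 tested, 6 peaked in G1 in both libraries, 8 in S, 1 in S/G2 and 1 in the cells labelled G2/M. Cdc6, which loads the Mcm helicase, was highest in G1 (50.7 and 45.0 CPM), lower in S (38.4 and 36.1) and in S/G2 (4.83 and 9.10), and had no UMI in the cells labelled G2/M, at least 4.68-fold lower than S. Mcm5, a helicase subunit, followed the same order with 169 and 154 in G1, 131 and 127 in S, 48.3 and 65.5 in S/G2 and 35.8 and 41.0 in the cells labelled G2/M. Its log2 difference from S was −1.77 ± 0.36 (SE; edgeR adjusted p = 4.11e-04), while that from S/G2 (−0.56 ± 0.40) did not pass (edgeR adjusted p = 0.455). Cdt1, the partner of Cdc6, fell from 74.0 and 60.1 in S to 11.1 and 15.9 in S/G2, and 1 UMI was left in the cells labelled G2/M, where S was 25.9 times higher with a counting interval from 4.60 to 1028. Of the 25 genes, 22 were lower in the cells labelled G2/M than in S (88%, beside 6.68% of all genes) and none was higher. Calls against S were lost for Mcm5 with 8 cells per sum (−1.37, edgeR adjusted p = 0.109) and without cells holding multiciliated markers (−1.63, 0.065), for Cdc6 with cells thinned and without cells holding those markers (0.067 and 0.150), and for Cdt1 with 8 cells per sum (0.060).

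Cyclin E and the genes of the replication fork peaked in S. Ccne2, which activates Cdk2 at the start of S phase, had 156 and 122 CPM in S and 20.1 and 34.6 in S/G2. It had no UMI in the cells labelled G2/M, at least 18.0-fold lower than S. Pcna had 854 and 795 in S, 403 and 451 in S/G2 and 43.8 and 82.0 in the cells labelled G2/M, a log2 difference from S of −3.86 ± 0.22 (edgeR adjusted p = 2.68e-17). The classes did not overlap between libraries for Pcna, and 13 of the 25 cells still held a UMI of it. Rrm2, the ribonucleotide reductase subunit that supplies deoxynucleotides, went from 469 and 497 in S to 321 and 435 in S/G2 and 47.8 and 24.6 in the cells labelled G2/M (−3.56 ± 0.27). Of 32 fork genes, 28 were lower than in S (87.5%, beside 6.68% of all genes). The exception past the test was Top1, the topoisomerase that relieves supercoils in all transcribing cells, with 295 and 418 against 207 and 200 (log2 difference 0.73 ± 0.17, edgeR adjusted p = 0.00227), a call lost with cells thinned to equal depth (0.39, edgeR adjusted p = 0.509).

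Cdk2, the kinase that cyclin E activates, had 44.8 and 42.5 CPM in S, 20.8 and 38.7 in S/G2 and no UMI in the cells labelled G2/M, at least 5.48-fold lower than S (edgeR adjusted p = 9.46e-04). That call was lost without cells holding multiciliated markers (edgeR adjusted p = 0.060).

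Several S-phase genes were absent at this depth from the cells labelled G2/M. Esco2, the acetyltransferase that establishes cohesion during replication, had 323 and 302 CPM in S, 255 and 300 in S/G2 and 0 UMIs in the cells labelled G2/M, at least 39.3-fold lower than S. Tk1, the thymidine salvage kinase, had 190 and 155 in S and was at least 22.2-fold lower. Chaf1b, of the chromatin assembly factor that follows the fork, had 124 and 128 in S and was at least 15.6-fold lower. Brca2, of homologous recombination, had 99.2 and 128 in S and was at least 13.5-fold lower. Fbxo5, the inhibitor of the anaphase-promoting complex, had 117 and 117 in S and 120 and 99.7 in S/G2 and was at least 14.6-fold lower than S. Esco2 and Fbxo5 did not differ past the test between S and S/G2 (log2 differences −0.17 ± 0.11 and −0.07 ± 0.13), whereas Chaf1b had already fallen there by 2.36 ± 0.17 on the log2 scale. 

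Clustered histone genes moved in both directions. These transcripts largely lack poly(A) tails, and the libraries were made with a 3′ chemistry, so their counts hold only what that chemistry captured. Of 18 tested, 10 were higher in S/G2 than in S and none was lower (beside 6.2% and 5.08% of all genes). In the cells labelled G2/M 3 were higher and 7 lower than in S (16.7% and 38.9%, beside 4.28% and 6.68%). Hist1h2bc had 242 and 233 CPM in S, 488 and 320 in S/G2 and 625 and 730 in the cells labelled G2/M (log2 difference from S 1.46 ± 0.18, edgeR adjusted p = 4.83e-06). Hist1h1c had 67.2 and 87.9 in S and 223 and 254 in the cells labelled G2/M (1.64 ± 0.31). Hist1h1a, in contrast, had 45.7 and 61.0 in S, 66.5 and 93.3 in S/G2 and no UMI in the cells labelled G2/M, at least 6.32-fold lower than S. Hist1h2bc and Hist1h1c were also high in G0, with 724 and 449 and with 290 and 204. The Hist1h1c call was lost without cells holding multiciliated markers (1.10, edgeR adjusted p = 0.142).

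**Figure D1:**
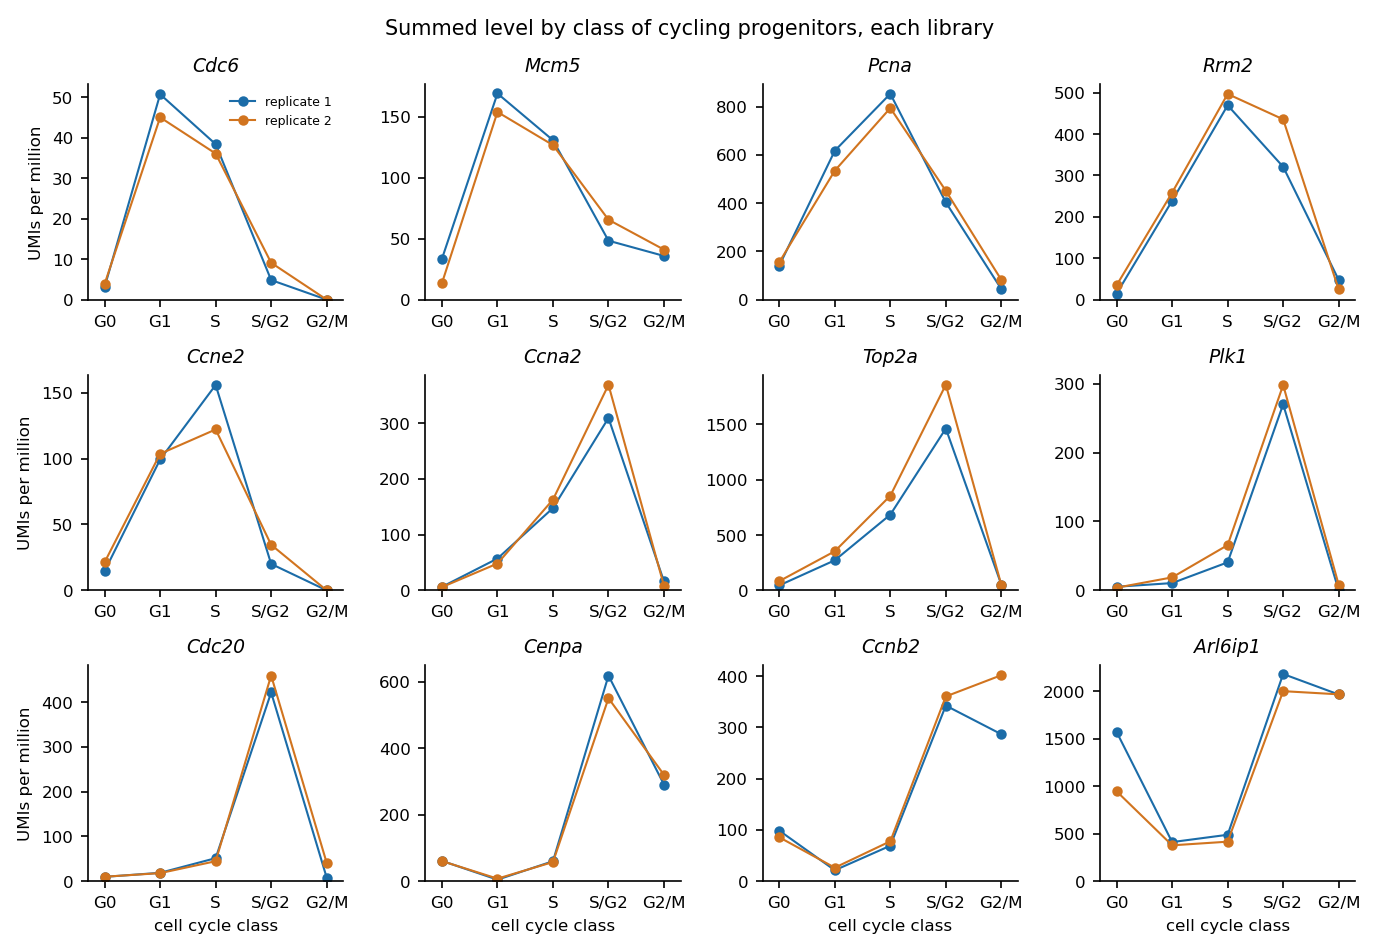
Summed level (CPM, linear axis from 0) of 12 genes in the 5 classes of cycling progenitors, with 1 line per library. Cdc6 and Mcm5 peak in G1, Pcna, Rrm2 and Ccne2 in S, and Ccna2, Top2a, Plk1, Cdc20 and Cenpa in S/G2, while Cenpa, Ccnb2 and Arl6ip1 stay above their S level in the cells labelled G2/M.

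About as many mitosis genes passed the test as higher in S/G2 than in S as did not, and most were lower in the cells labelled G2/M than in S/G2. Of 181 tested genes on the mitosis lists, 93 were higher in S/G2 than in S (51.4%, beside 6.2% of all genes), 11 lower and 77 not called. Of centriole duplication genes 1 of 19 was higher, and of nuclear envelope genes 5 of 23. Against S/G2, 117 were lower in the cells labelled G2/M (64.6%, beside 5.75%) and 2 higher. Against S itself, 94 were lower in the cells labelled G2/M (51.9%, beside 6.68%) and 18 higher (9.94%, beside 4.28%). The median log2 difference from S was −1.59, or −1.28 with genes of no UMI at the floor. The highest level was in S/G2 in both libraries for 104 of the 181 genes, in S for 23 and in the cells labelled G2/M for 10, where of all 10017 genes 716, 687 and 1205 did. Leaving out every cell with 3 or more UMIs of multiciliated cell markers other than Foxj1, which kept 6 and 3 cells labelled G2/M, left 55 mitosis genes lower than in S and 6 higher, of 161 tested. Of all 7177 genes tested in that setting, 319 were lower and 74 higher.

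**Figure D2:**
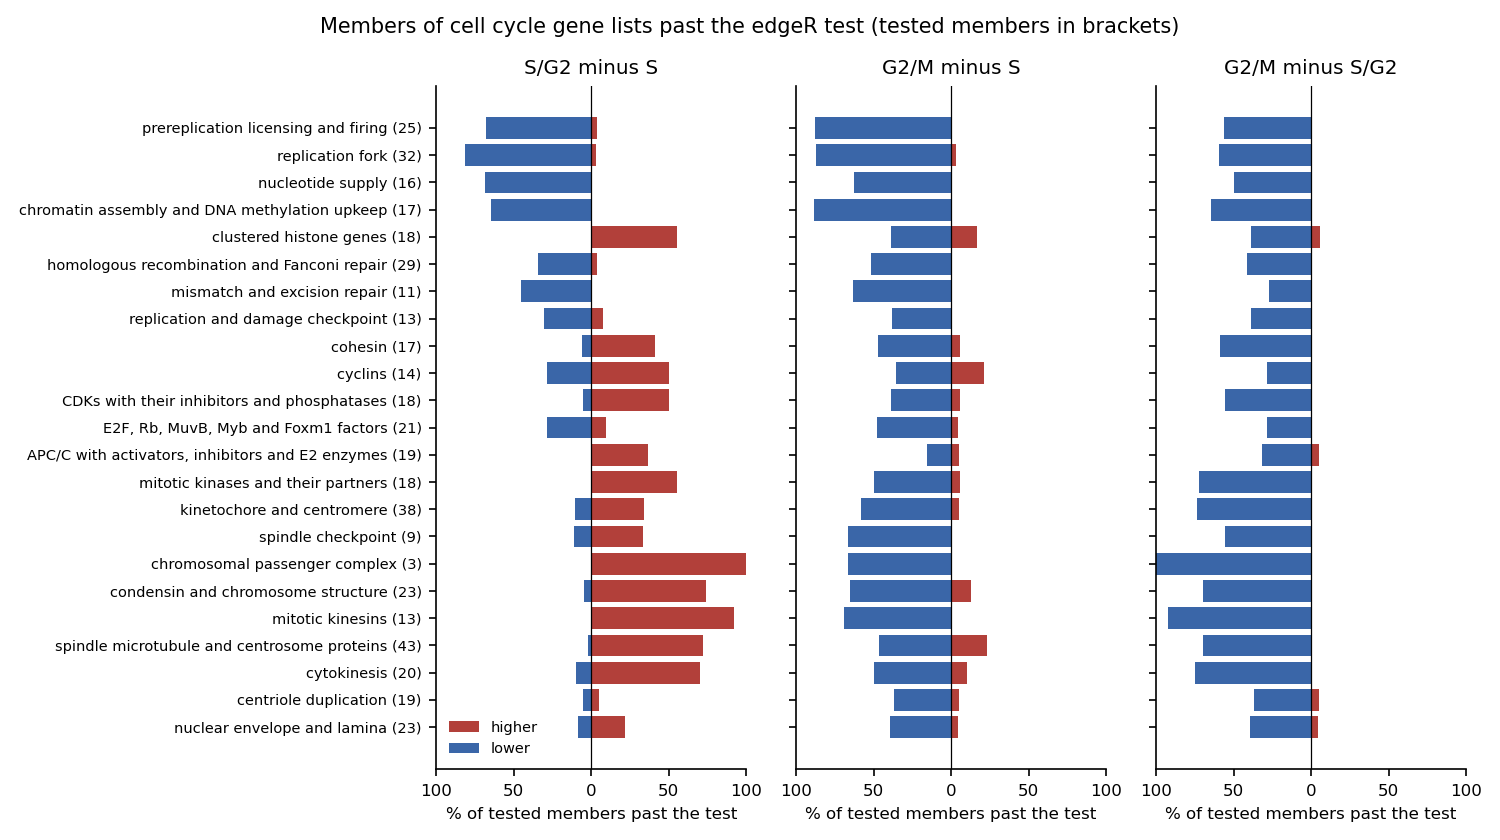
Percent of the tested members of each cell cycle list that were higher (red, to the right) or lower (blue, to the left) by the edgeR test in the 3 comparisons named above the panels. Mitosis lists lie to the right for S/G2 minus S, where 93 of 181 genes were higher, and to the left for G2/M minus S/G2, where 117 of 181 were lower.

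The regulators that start mitosis were among those that fell. Ccna2, cyclin A2, had 148 and 163 CPM in S, 309 and 369 in S/G2 and 15.9 and 8.20 in the cells labelled G2/M, a log2 difference from S of −3.50 ± 0.41 (edgeR adjusted p = 1.36e-08). Cdk1, the mitotic cyclin-dependent kinase, had 638 and 550 in S, 1040 and 1014 in S/G2 and 51.8 and 73.8 in the cells labelled G2/M (−3.35 ± 0.23). Aurkb, the kinase of the chromosomal passenger complex, had 252 and 186 in S and 268 and 291 in S/G2. It had no UMI in the cells labelled G2/M, at least 28.6-fold lower than S. Aurka, the spindle pole kinase, had 131 and 111 in S/G2 but only 22.4 and 20.3 in S, and 1 UMI was counted in the cells labelled G2/M. S was 8.10 times higher for Aurka with an interval from 1.41 to 325, and its log2 difference within replicate 2 alone was 0.15 with 2 counts added, so its direction against S rests on replicate 1. The call was also lost under DESeq2 (adjusted p = 0.174). The classes S/G2 and S did not overlap for Ccna2, Cdk1 or Aurka.

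Ccnb1, cyclin B1, and Cdc20, the activator of the anaphase-promoting complex in mitosis, rose steeply into S/G2, and their difference between the cells labelled G2/M and S did not pass the test. Ccnb1 had 41.6 and 53.6 CPM in S, 385 and 443 in S/G2 and 27.9 and 49.2 in the cells labelled G2/M. Its log2 difference from S, −0.39 ± 0.39, did not pass (edgeR adjusted p = 0.609), whereas that from S/G2, −3.53 ± 0.27, did (edgeR adjusted p = 4.50e-14). Cdc20 had 51.2 and 44.4 in S, 421 and 459 in S/G2 and 7.96 and 41.0 in the cells labelled G2/M, where the difference from S (−1.36 ± 0.48) just missed the threshold (edgeR adjusted p = 0.0602). The libraries differ for Cdc20, which was below S only in replicate 1 once 2 counts were added (0.31 within replicate 2), and the call was made with no low count filter (−1.48, edgeR adjusted p = 0.035) and with UMIs per cell (−1.72, 0.0072). Ube2c, the ubiquitin-conjugating enzyme of that complex, had 239 and 187 in S, 1390 and 1165 in S/G2 and 11.9 and 65.6 in the cells labelled G2/M (−2.87 ± 0.34 from S). Ccnf, an F-box cyclin, had 32.9 and 35.1 in S, 65.7 and 70.5 in S/G2 and no UMI in the cells labelled G2/M, at least 4.18-fold lower than S. Its call was lost with cells thinned (edgeR adjusted p = 0.080) and without cells holding multiciliated markers (edgeR adjusted p = 0.083).

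The proteins that shape and pull chromosomes gave the same order. Top2a, the topoisomerase that untangles sister chromatids, had 685 and 856 CPM in S, 1463 and 1859 in S/G2 and 51.8 and 49.2 in the cells labelled G2/M (−3.86 ± 0.22 from S, edgeR adjusted p = 2.68e-17). Mki67, which coats mitotic chromosomes, had 389 and 472, 928 and 1295, and 123 and 279, with 17 of its 65 UMIs in 1 cell. Of 13 mitotic kinesins, 12 were higher in S/G2 than in S, 12 were lower in the cells labelled G2/M than in S/G2, and 9 were lower than in S. Over all genes these shares were 6.2%, 5.75% and 6.68%. Kif18a, a kinesin that aligns chromosomes, had 46.2 and 40.7 in S, 107 and 124 in S/G2 and no UMI in the cells labelled G2/M, at least 5.52-fold lower than S, a call lost with cells thinned (edgeR adjusted p = 0.074). Sgo2a, the protector of centromeric cohesion, had 121 and 127 in S, 248 and 318 in S/G2 and no UMI there, at least 15.3-fold lower than S. Ndc80, of the kinetochore's microtubule-binding complex, had 69.9 and 74.0 in S and no UMI there, at least 8.86-fold lower. 

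A smaller set of late genes was above its S level in the cells labelled G2/M. Among its members, Cenpf, Tpx2 and Cdkn3 were well below their S/G2 level there in both libraries. Cenpa, the histone variant that marks centromeres (chr5:30666777-30674830 in mm10), had 59.9 and 57.3 CPM in S, 619 and 551 in S/G2 and 291 and 320 in the cells labelled G2/M. Its log2 difference was 2.35 ± 0.20 from S (edgeR adjusted p = 1.40e-12) and −0.98 ± 0.15 from S/G2 (edgeR adjusted p = 4.04e-06), and the 3 classes did not overlap between libraries. Ccnb2, cyclin B2 (chr9:70407692-70421547), had 69.0 and 77.7 in S, 343 and 360 in S/G2 and 287 and 402 in the cells labelled G2/M. It was higher than in S by 2.18 ± 0.19 on the log2 scale (edgeR adjusted p = 5.04e-12), and its difference from S/G2 did not pass (−0.10 ± 0.16, edgeR adjusted p = 0.782). UMIs of Cenpa and of Ccnb2 were each found in 24 of the 25 cells. Cenpa and Ccnb2 carry the same CHR letters printed above as Plk1, Aurka and Cdc20, which were low in these cells. All of these genes were picked because they hold a match, and a link between the letters and the levels was not tested.

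Other members of that set were Knstrn, a kinetochore and spindle protein, with 63.1 and 51.8 in S, 311 and 299 in S/G2 and 251 and 197 in the cells labelled G2/M (1.98 ± 0.24 from S). Cdkn3, a phosphatase that acts on cyclin-dependent kinases, had 43.0 and 33.3, 235 and 191, and 104 and 115 (1.45 ± 0.29). Racgap1, which organises the central spindle in cytokinesis, had 114 and 142, 306 and 344, and 239 and 189 (0.84 ± 0.20). Tpx2, which activates Aurora A on the spindle, had 304 and 302, 860 and 858, and 470 and 443 (0.60 ± 0.15), a call lost under 6 alternatives, among them no block (0.59, edgeR adjusted p = 0.113). Cenpf, a late kinetochore protein, had 370 and 397, 1860 and 1988, and 434 and 681 (0.46 ± 0.14, edgeR adjusted p = 0.0265), a call lost under 9 alternatives, DESeq2 among them (adjusted p = 0.056). The call of Racgap1 was lost under 5 alternatives, among them no block (edgeR adjusted p = 0.063), that of Cdkn3 under 3, among them thinning (edgeR adjusted p = 0.182), and those of Knstrn and Arl6ip1 held in every alternative tested. Arl6ip1, an endoplasmic reticulum membrane protein, had 488 and 415, 2182 and 2002, and 1967 and 1968 (2.10 ± 0.13), with UMIs in all 25 cells. 

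Several of these late genes stood above their G1 level in the cells labelled G0. Cenpa had 60.8 and 60.2 CPM in G0 and only 4.23 and 7.33 in G1. Ccnb2 had 98.5 and 85.5 in G0 and 21.1 and 26.2 in G1, and Arl6ip1 1571 and 946 against 411 and 377. The Cenpa levels of G0 and S were close, and that difference was not tested. A comparison of the cells labelled G2/M with G0 was added after these levels had been seen. In it 126 genes were higher (1.26%) and 78 lower (0.779%), 2.04% of the genes in all, and of the 181 mitosis genes 35 were higher and 1 lower, while of the 161 replication genes none was higher and 4 were lower. Cenpa was higher than in G0 by 2.35 and Ccnb2 by 1.85 on the log2 scale. Without the block the test called 44 genes in all in that comparison.

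The gene groups were also summed in single cells. The 183 mitosis genes took a median of 237 and 262 UMIs per 10000 UMIs of a cell in the cells labelled G2/M, 328 and 334 in S and 535 and 535 in S/G2. The 150 replication genes without clustered histones took 42.3 and 42.9, 191 and 173, and 93.7 and 119. The highest replication value of any cell labelled G2/M was 76.5 in replicate 1 and 53.4 in replicate 2, and the lowest of any S cell was 71.2 and 63.9. So the ranges met only in replicate 1. For 6 mitotic genes chosen after their levels were seen (Ccna2, Plk1, Cdc20, Aurka, Ccnb1 and Ube2c), no cell labelled G2/M held more than 3 UMIs in replicate 1 or 6 in replicate 2. The median S/G2 cell held 43 and 46 and the median S cell 8 and 9.

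**Figure D3:**
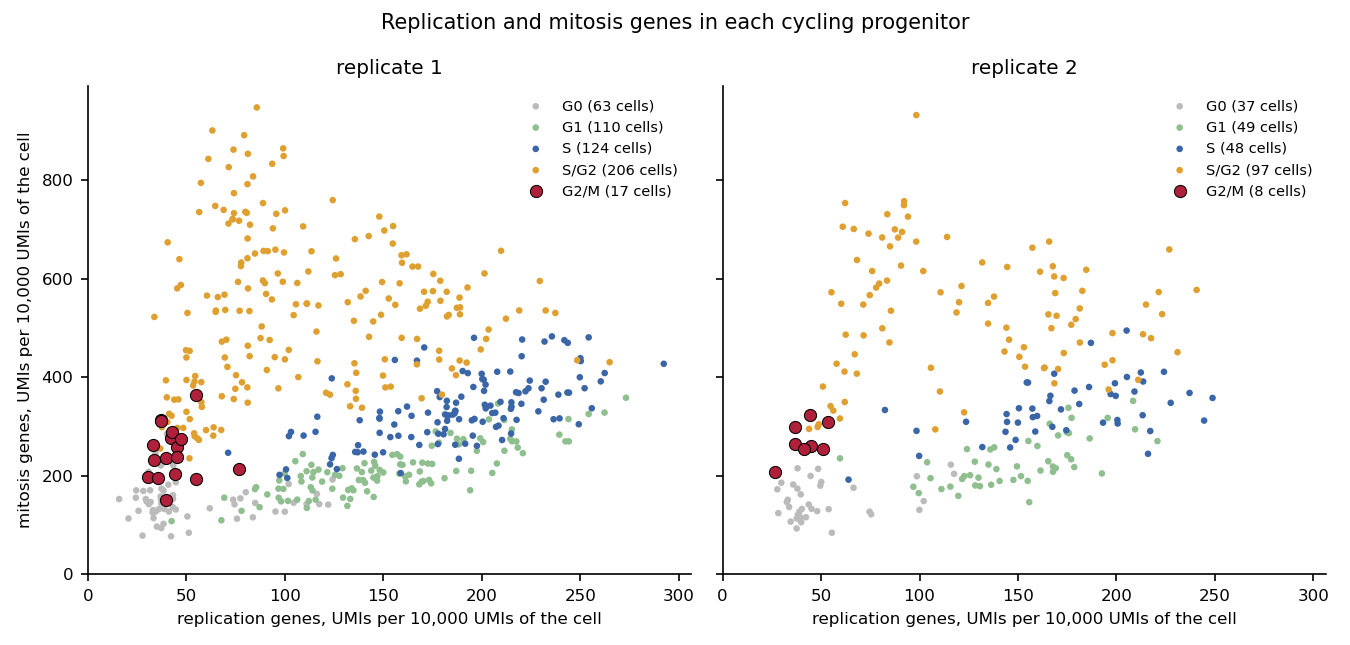
Each point is 1 cycling progenitor, coloured by class, with the summed UMIs of 150 replication genes (x axis) and 183 mitosis genes (y axis) per 10000 UMIs of the cell, and 1 panel per library. The cells labelled G2/M (large red points) lie at the low end of the replication axis, medians 42.3 and 42.9, and below most S/G2 cells on the mitosis axis.

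Shares of cells with a UMI were compared at equal depth for 5 genes that were picked from 28 after their shares had been seen. With each cell thinned to 5000 UMIs, which left out 3 of the S cells and none labelled G2/M, Cenpa was found in 13 of 17 cells labelled G2/M (76.5%, exact Clopper-Pearson 95% interval 50.1 to 93.2) and in 6 of 8 (75.0%, 34.9 to 96.8). In S it was found in 25.0% (17.7 to 33.6) and 11.1% (3.71 to 24.1). Ccnb2 was found in 76.5% and 100% of the cells labelled G2/M and in 29.8% and 37.8% of S. Plk1 was found in 0 of 17, which allows a share of up to 17.6%, and in 1 of 8 cells labelled G2/M, against 21.8% and 24.4% of S. Ccna2 was found in 1 of 17 and 0 of 8, against 46.0% and 51.1%. Pcna was found in 11.8% and 37.5%, against 97.6% and 95.6%. In unthinned cells labelled G2/M the shares were 100% and 87.5% for Cenpa, 94.1% and 100% for Ccnb2, 0% and 12.5% for Plk1, 23.5% and 12.5% for Ccna2 and 47.1% and 62.5% for Pcna. Progenitors I are labelled apart from the cycling progenitors, and that label does not state their cycle status. At the same depth their shares were 2.82% and 1.82% for Cenpa, 0.529% and 0.661% for Ccnb2 and 0.265% and 0.330% for Plk1. They were 0.176% and 0.495% for Ccna2 and 29.5% and 28.4% for Pcna. The Pcna share of the cells labelled G2/M was near that of progenitors I. Intervals cover counting error only.

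Beside the late genes described above, a further group of genes had a higher level in the cells labelled G2/M than in both S and S/G2. A fitted difference from S/G2 is given for Gpx7 and Hes6 only. Gpx7, a peroxidase of the endoplasmic reticulum (chr4:108400390-108406961), had 23.3 and 18.5 CPM in S, 57.3 and 35.0 in S/G2 and 119 and 139 in the cells labelled G2/M. The log2 difference was 2.55 ± 0.31 from S (edgeR adjusted p = 3.90e-08) and 1.38 ± 0.27 from S/G2, and the call against S was lost without cells holding multiciliated markers (1.65, edgeR adjusted p = 0.101). Zmiz1, a transcriptional coregulator, had 36.1 and 47.2, 45.0 and 49.6, and 127 and 254 (2.09 ± 0.26 from S). Prdm16os, named as the opposite strand transcript of Prdm16, had 21.0 and 31.4, 37.0 and 36.9, and 79.6 and 156 (2.09 ± 0.35 from S), and reads of overlapping genes may be shared with it. Hes6, a bHLH factor of neural differentiation that opposes Hes1, had 18.7 and 31.4, 31.2 and 33.2, and 67.7 and 123 (1.89 ± 0.35 from S, 1.43 ± 0.32 from S/G2). Cdc26, a subunit of the anaphase-promoting complex, had 106 and 104, 122 and 104, and 223 and 205 (1.04 ± 0.21 from S). Lmna, which encodes the A-type lamins of the nuclear envelope, had 92.3 and 122, 99.1 and 94.2, and 207 and 131 (0.80 ± 0.23 from S). In these genes both libraries lay above both libraries of S and of S/G2, and replicate 2 was the higher one except in Cdc26 and Lmna. The calls of Lmna and Cdc26 against S were also lost without cells holding multiciliated markers (edgeR adjusted p = 0.312 and 0.522), and that of Zmiz1 with 8 cells per sum (1.33, edgeR adjusted p = 0.056). The Cdc26 call was also lost with cells thinned (0.46, edgeR adjusted p = 0.584). That of Lmna was lost too under DESeq2 (adjusted p = 0.061), with no block (edgeR adjusted p = 0.106) and with 8 cells per sum (edgeR adjusted p = 0.620). It was lost as well with UMIs per cell (edgeR adjusted p = 0.310) and without cells with other-type markers (edgeR adjusted p = 0.086). The Prdm16os call was lost with cells thinned, with 8 cells per sum and without cells holding multiciliated markers (edgeR adjusted p = 0.140, 0.070 and 0.076).

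**Figure D4:**
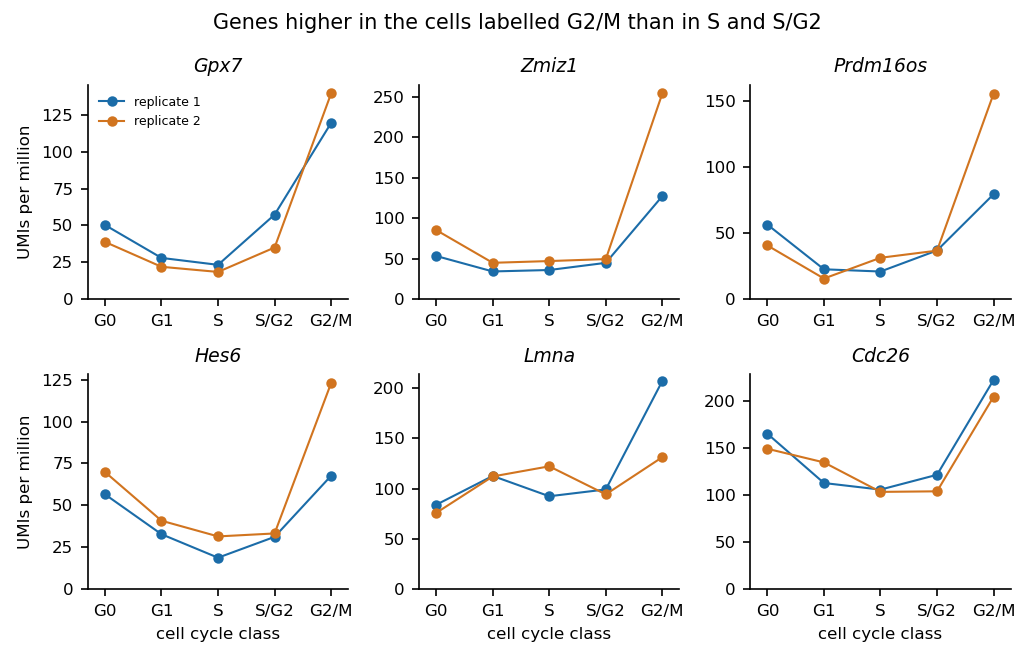
Summed level (CPM, linear axis from 0) of 6 genes in the 5 classes, with 1 line per library. In each the cells labelled G2/M stand above S and S/G2 in both libraries, from 67.7 and 123 for Hes6 to 223 and 205 for Cdc26.

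Some cyclin, stress and membrane protein genes were also above S in the cells labelled G2/M. Ccna1, the cyclin A of germ and multiciliated cells, had 42.0 and 24.0 CPM in S, 108 and 84.2 in S/G2 and 99.5 and 131 in the cells labelled G2/M (1.64 ± 0.32 from S, edgeR adjusted p = 2.64e-04). Ccng1, a p53 target, had 54.4 and 67.5, 116 and 146, and 179 and 90.2 (1.34 ± 0.26). Hsp90b1, a chaperone of the endoplasmic reticulum, had 525 and 635, 863 and 1037, and 1031 and 1370 (1.03 ± 0.12, edgeR adjusted p = 1.07e-08). Emp1, a membrane protein, had 23.8 and 31.4, 91.6 and 109, and 119 and 123 (2.19 ± 0.29). Without cells holding multiciliated markers the Ccng1 difference fell to 0.058 (edgeR adjusted p = 0.978). The Emp1 call was lost there too (1.67, edgeR adjusted p = 0.105). With cells thinned the calls of Ccng1 and Emp1 were lost (edgeR adjusted p = 0.192 and 0.235). With 8 cells per sum those of Ccna1, Hsp90b1, Ccng1 and Emp1 were lost (edgeR adjusted p = 0.208, 0.051, 0.201 and 0.147). Among inhibitors, Cdkn1a (102 and 119 in S, 107 and 65.6 in the cells labelled G2/M), Cdkn1b (126 and 142, 87.6 and 230) and Cdkn1c (34.7 and 49.9, 63.7 and 41.0) did not pass the test against S, and 17 of the 35 Cdkn1a UMIs in the cells labelled G2/M lay in 1 cell.

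Some differences rested on few cells or on 1 library. Hes5, a Notch target, had 0 and 3.70 CPM in S and 0 and 115 in the cells labelled G2/M. It was called higher (edgeR adjusted p = 1.96e-04), but its 14 UMIs lay in 3 cells, 10 of them in 1, none came from replicate 1, and the call was lost under DESeq2 (adjusted p = 0.149) and with no block (edgeR adjusted p = 0.468). Tuba1c, an alpha-tubulin, had 3.98 and 65.6 in the cells labelled G2/M against 3.20 and 5.55 in S, from 9 UMIs in 4 cells, and its call was lost with no block (edgeR adjusted p = 0.184). Myb, a factor of early multiciliation, had 23.9 and 180 against 30.6 and 14.8, with 16 of 28 UMIs in 1 cell, and did not pass (edgeR adjusted p = 0.437). It was called higher with cells thinned (2.72, edgeR adjusted p = 0.0061) and with the 2 classes alone in the fit (1.68, edgeR adjusted p = 0.0037). Gmnc, the regulator that starts multiciliation, had 7.96 and 73.8 against 6.86 and 10.2, from 11 UMIs in 3 cells, and did not pass either (edgeR adjusted p = 0.106). Without cells with other-type markers Gmnc was called higher (2.06, edgeR adjusted p = 0.042).

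Lists outside the cell cycle held calls in both directions. Over 165 tested genes on 10 such lists, 13 were higher and 12 lower in the cells labelled G2/M than in S (7.88% and 7.27%, beside 4.28% and 6.68% of all genes). Of 15 p53 targets 3 were higher and none lower, of 13 Notch pathway genes 2 were higher, and of 12 multiciliation regulators 3 were higher and 2 lower. Of 23 axoneme genes none was higher and 1 lower, and of 21 cholesterol synthesis genes 4 were lower.

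Markers of other cell types were measured in the same sums. Of 12 microglia markers, 8 and 11 were at 0 in the cells labelled G2/M, with 5 UMIs and 1 in all, and the 5 erythroid markers were at 0 in S and in the cells labelled G2/M. The summed level of 12 multiciliated cell markers was 685 and 476 CPM in the cells labelled G2/M, against 705 and 574 in S. Fibroblast or mural markers summed to 3396 and 1279 against 6836 and 9255 in S, nearly all from Acta2 and Tagln, while Lum was at 0 and Col1a1 and Col3a1 had no UMI in the cells labelled G2/M. Of 20 astroglial progenitor markers, 6 were higher and 4 lower than in S (30% and 20%, beside 4.28% and 6.68% of all genes). Among them Fabp7, a fatty acid binding protein of radial glia, had 3467 and 6233 against 2594 and 2951 (0.74 ± 0.13), and Gfap, the astrocyte filament, 115 and 172 against 321 and 269 (−1.15 ± 0.21). The part of these markers and of the lower depth in the differences above was not tested.

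Cells labelled G2/M were also found in other populations of the same libraries, and 10 genes chosen after their values had been seen were compared there without a test. Cenpa, Ccnb2 and Cenpf were higher in the cycling progenitors labelled G2/M than in the cells of that label in each of 6 other populations in both libraries. Late deuterosomal cells, the nearest for Cenpa, had 129 and 146 CPM of it (52 and 21 cells). The order was the opposite for Top2a, Cdk1 and Cdc20, which were higher in early, mid and late deuterosomal cells labelled G2/M than in the cycling progenitors in both libraries. Cdk1 had 357 and 411 CPM in early, 260.3 and 235 in mid and 163 and 183 in late deuterosomal cells of that label. Plk1 had 10.1 and 31.0 in early and 28.6 and 32.4 in mid deuterosomal cells, from 3 and 4 and from 11 and 4 UMIs. These were 25 and 11 early cells and 23 and 7 mid cells. In late deuterosomal cells Plk1 had 14.6 and 0, from 15 and 0 UMIs, and Ube2c had 156 and 161. In progenitors I and II together, which are labelled apart from the cycling progenitors, Cenpa was at 5.14 and 3.97 and Plk1 at 0.661 and 0.422.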

How the data were processed

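Per the submitters' processing notes, the tools were Cell Ranger 3 and Cell Ranger 5.0.1 and the build was mm10, and the deposited table holds raw UMI counts of 32287 genes in 16401 cells, with the authors' cell labels and classes. Doublet treatment was not given in the sources used here, and no doublet caller was run. Counts were summed per library and class of cycling progenitors (10 sums), filtered with filterByExpr, scaled with TMM and tested with edgeR 4.0.16 (R 4.3.3). Classes under 20 cells were to be left out, but G2/M (17 and 8 cells) was kept because the comparison is about it. Classes of 1 library deviated together (correlations 0.18 to 0.42 over 10 pairs), so library was a block. In simulated data for G2/M minus S (9640 genes tested), 14% of genes changed 1.5-fold, 12% changed 2-fold, 62% changed 4-fold and 82% changed 8-fold were recovered, and 4 of 9442 unchanged genes were called. Every simulated gene had the same spread (edgeR common dispersion 0.0045), with no difference between libraries and none between the other classes. The real counts differ from that setting, so these rates need not hold for them. Log2 differences within 1 library had 2 counts added. Gene spans are from GENCODE M21, which holds 99.6% of the gene identifiers.

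The members, lists and tests were chosen with earlier results of these data known. Genes were named by size and by role. By size these are the 10 strongest differences in each direction with mean log2 CPM of 5 or more whose sign both libraries share, and the 8 strongest outside the lists. By role these are up to 2 per list and direction past the test, and a fixed set of cell cycle and multiciliation genes. The choice by size passed over predicted, mitochondrial and ribosomal protein genes. The rule names 132 genes, of which the text describes some. Genes outside it (Fabp7, Gfap, Acta2, Tagln, Lum, Col1a1 and Col3a1) are cell type markers singled out after their values were seen. The alternatives were another scaling, DESeq2 1.42.0, no filter, no block, 2 classes alone, thinning to 5000 UMIs, 8 cells per sum, cell number as offset, and leaving out the deepest 5% of cells, cells with markers of other types, or 1 library. In the other 2, cells were left out by marker (Olig1 not counted among the other-type markers; multiciliated markers). These 2 and the comparison with G0 were added after the data had been seen.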

Additional observations from a re-analysis of the deposited data

How the results depend on the processing

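For G2/M minus S the test called 1098 genes. It called 563 with no replicate block, 426 with cells thinned (5856 genes tested), 353 with 8 cells per sum (3951 tested), 393 without cells with multiciliated markers (7177 tested) and 1658 with UMIs per cell. For S/G2 minus S, 1130 calls became 410 with DESeq2, 301 with no replicate block, 414 thinned, 118 with 8 cells per sum and 449 without cells with multiciliated markers. For G2/M minus S/G2, 853 calls became 410, 327, 267 and 298 under no replicate block, thinning, 8 cells per sum and without cells with multiciliated markers, and 1968 with UMIs per cell. For G2/M minus G0, 204 calls became 44, 63, 51 and 56 under the same 4. The remaining alternatives stayed within 1.5 times. Thinning, drawing cells and leaving cells out also lower the number of genes tested; the cause of the other shifts was not tested. With 1 library no test can be made, so leaving 1 out gave values for genes only.

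Among the 131 named genes tested, some values turned sign for G2/M minus S, none past a test under the alternative. Genes outside the named set were not checked for a change of sign. With 1 library left out, the genes past the main test that turned were Aurka (0.15) and E2f2 (0.56) without replicate 1 (−1.55 and −1.40 without replicate 2). Genes not past the main test turned without replicate 1 too, among them Ccnb1 (0.24) and Cdc20 (0.31). Under the other alternatives the values that turned were Ccnb1 without cells with other-type markers (0.00087), Ccnd1 (0.053), Deup1 (0.45), Hes1 (0.44) and Cdkn1c (−0.32) with cells thinned, Cdkn1b (−0.19), Cdkn1c (−0.033) and Tpx2 (−0.025) with 8 cells per sum, Cdkn1b (−0.070) and Id3 (−0.051) with no low count filter, Cdkn1b (−0.32) and Id3 (−0.28) with UMIs per cell, Id3 (−0.040) without the deepest cells, and Ccnd1 (0.060), Id3 (−0.54) and Tuba1c (−4.20) without cells with multiciliated markers. Cenpa, Ccnb2 and Hes6 kept direction and call in every alternative in which they were tested.

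In unthinned cells the share with a UMI in S (replicates 1 and 2) was 85.5% and 97.9% for Ccna2, 62.9% and 68.8% for Ccnb2, 50% and 64.6% for Cenpa, 47.6% and 64.6% for Plk1 and 100% in both for Pcna. In the cells labelled G2/M of replicate 1 it was 94.1% for Ccnb2, 100% for Cenpa and 47.1% for Pcna. The 25 cells labelled G2/M limit every level there, and an absent gene may have been at up to 8.04 CPM.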
